A study of Mus musculus with 6 samples.

Results

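The genes of the cytosolic ribosomal proteins were described in 6 RNA-seq libraries of mouse spinal motor neurons after sciatic nerve injury. They were taken by symbol (Rpl or Rps with a number and at most a short suffix, Rplp0 to Rplp2, and Rpsa), a rule that uses no measured value. It gave 89 of the 53858 genes in the count table, 53 of the large and 36 of the small subunit. By GENCODE M21, 83 of them are protein-coding and 6 are annotated as pseudogenes (*Rpl32l*, *Rpl6l*, *Rps12l1*, *Rps3a2*, *Rps3a3* and *Rps4l*).

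Each cytosolic ribosome carries a single copy of nearly every ribosomal protein, so the genes are usually expressed together. The small subunit reads the mRNA and the large subunit joins the amino acids, while the acidic P proteins form a stalk on the large subunit that recruits the elongation factors. Most mRNAs of these genes begin with a run of C and T bases, the 5′ terminal oligopyrimidine or TOP motif, through which the kinase complex mTORC1 adjusts their translation. In injured neurons, ribosomes and mRNAs of ribosomal proteins are found in the cell body and also in axons.

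All animals were wild-type mice whose sciatic nerve was crushed, and all cells were taken at day 6. The membrane dye DiO was injected at day 0 and the dye DiI, at a more distal site, at day 2. The DiO-only pools (DiO+/DiI-, 3 libraries) held injured motor neurons without the second dye. The double-labelled pools (DiO+/DiI+, 3 libraries) held those that carried both. The comparison asks how motor neurons of low and of high regenerative ability differ. Which group is which is not assigned here. Of 6 genes checked for regeneration, among them *Gap43*, *Gal* and *Jun*, all 6 were lower in the double-labelled pools. For 5 of them the groups did not overlap, and 0 passed adjustment of p. What this says of regenerative ability was not tested. Each library came from 10 to 15 fluorescent cells picked into 1 tube and amplified for 20 PCR cycles with the SMART-Seq HT kit. Strain, age and sex are not in the labels, nor is the number of mice behind each pool. The p-values therefore reflect only how much these pools scattered, which may be a technical scatter.

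The libraries held 2997714 to 6563403 counts, and both pools numbered 2 were the shallowest. The share of counts from mitochondrially encoded genes was 3.96%, 10.8% and 5.06% in DiO-only pools 1 to 3, and 4.03%, 18.0% and 6.13% in the double-labelled pools. The motor neuron marker *Chat* was present in every pool, at 59.2 to 101.1 CPM (counts divided by the scaled library size) in the DiO-only and 89.1 to 140.5 CPM in the double-labelled pools. Of the 12 such markers tested, 7, *Chat* among them, were higher in the double-labelled pools and 5 were lower. Their summed level was 22660.5 to 43365.3 CPM in the DiO-only and 29527.9 to 36374.1 CPM in the double-labelled pools. The 11 oligodendrocyte markers tested had log2 fold changes above 0 throughout (double-labelled against DiO-only), with a summed level of 286 to 587 CPM in the DiO-only and 1449 to 4904 CPM in the double-labelled pools. For astrocyte markers this held for 8 of 10, with sums of 867 to 1276 against 1072 to 2303 CPM, and no marker of either list was at 0 counts throughout. Whether these cells' RNA has a part in the ribosomal protein values was not tested. In such pools, fewer cells of a type and less RNA per cell cannot be told apart.

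The start sites of these genes are shown first, because the members moved together across the libraries (below) and the C and T run is the sequence feature they are known for. RefSeq (GRCm38.p6) start windows matched 63 of the 83 protein-coding members by symbol. The lines run from 30 bases before to 20 bases from the first listed start, 5′ to 3′ on the gene's strand. Capitals mark the longest run of C and T that lies within 20 bases of the start. *Rps6* is at chr4:86857348-86857397 (minus strand), *Rpl15* at chr14:18270967-18271016 (minus), *Rpl35* at chr2:39005112-39005161 (minus), *Rps18* at chr17:33955646-33955695 (minus), *Rpl38* at chr11:114668550-114668599 (plus), *Rpl22l1* at chr3:28805478-28805527 (plus), *Rpl22* at chr4:152325696-152325745 (plus) and *Rps4x* at chrX:102189372-102189421 (minus). The last 2 are given as windows whose longest run had 4 bases. In the other windows printed the run crossed the start or began next to it, which did not hold for all members.
Rps6: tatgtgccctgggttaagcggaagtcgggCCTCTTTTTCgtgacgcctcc
Rpl15: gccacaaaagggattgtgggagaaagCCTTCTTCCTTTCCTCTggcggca
Rpl35: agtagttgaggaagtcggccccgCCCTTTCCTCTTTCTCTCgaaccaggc
Rps18: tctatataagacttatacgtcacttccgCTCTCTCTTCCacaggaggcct
Rpl38: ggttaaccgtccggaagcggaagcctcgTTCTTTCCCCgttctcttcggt
Rpl22l1: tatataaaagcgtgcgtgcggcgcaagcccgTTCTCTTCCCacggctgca
Rpl22: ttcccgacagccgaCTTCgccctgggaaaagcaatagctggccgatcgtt
Rps4x: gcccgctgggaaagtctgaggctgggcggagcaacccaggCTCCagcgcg

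A run of at least 10 C or T bases lay within 20 bases of the start, on either side, in 20 of the 63 members (31.7%), against 7.19% of the 26961 other genes with a window. Runs wholly before the start were counted too, such as that of *Rpl31* (13 bases from position -18). Such runs lie outside an mRNA that begins at the listed start, so these shares do not count TOP mRNAs. For a run of at least 7 the shares were 35 of 63 (55.6%) and 24.2%. Over the whole window, from 250 bases before to 50 after the start and on either strand, CCGGAAG, a core bound by ETS factors such as GABP, occurred in 25 members (39.7%) and in 9.05% of other genes. AAGATGG, a core bound by YY1, which can share its first 3 letters with the end of CCGGAAG, occurred in 9 (14.3%) and 6.46%. The TATA box core TATAAA occurred in 6 (9.52%) and 14.2%. These are letter matches and not shown to be binding sites. The 34 tested members with a run of at least 7 followed the members' median profile over the 6 libraries with a median r of 0.95, and the 25 without one with 0.92. Their median log2 fold changes, double-labelled against DiO-only pools, were -0.33 and -0.29.

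In all, 80 of the 89 members had enough counts to be tested, 47 of the large and 33 of the small subunit, and 79 of these are protein-coding. The other 9 were at or near the floor. *Rpl10l*, *Rpl39l* and the pseudogene *Rps12l1* had 0 counts in all 6 libraries, where 3 counts are 0.457 to 1.00 CPM. *Rpl10l* and *Rpl39l* are known for expression in the testis. *Rpl3l*, a paralog of *Rpl3* known from striated muscle, had 32 counts in all, *Rpl6l* 15, *Rpl32l* 8, *Rps3a2* 5 and *Rps3a3* 3. The protein-coding *Rpl24* had 1 count in all, in double-labelled pool 3. It overlaps *Gm28037* on the same strand, and 81.7% of the 50-base windows of its transcript also occur in transcripts of other genes.

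Together the members took 0.773%, 1.19% and 0.714% of all counts in DiO-only pools 1 to 3 and 0.678%, 0.907% and 0.626% in double-labelled pools 1 to 3. Pool 2 was the highest of each group, and the groups overlapped. The large subunit took 0.495%, 0.732% and 0.458% against 0.410%, 0.557% and 0.401% (0.562% ± 0.149 and 0.456% ± 0.0874, SD, n = 3 each, exact permutation test, two-sided p = 0.5). The small subunit took 0.278%, 0.461% and 0.256% against 0.268%, 0.350% and 0.225% (0.332% ± 0.113 and 0.281% ± 0.0637, n = 3 each, exact permutation test, two-sided p = 0.6). With 3 pools a group the smallest p this test can give is 0.1. The groups overlapped for both subunits. The small subunit's difference was below the SD of either group, and the large subunit's was below that of the DiO-only pools and above that of the double-labelled pools. Without DiO-only pool 2 the small subunit's difference (double-labelled minus DiO-only) turned from -0.0508 to 0.0140 percentage points and the large subunit's shrank from -0.106 to -0.0206.

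The ratio of large to small subunit counts was 1.78, 1.59 and 1.79 in the DiO-only pools and 1.53, 1.59 and 1.79 in the double-labelled pools. Its means of 1.72 ± 0.115 and 1.64 ± 0.134 (SD, n = 3 each) were not told apart (exact permutation test, two-sided p = 0.6). The lowest ratio belonged to double-labelled pool 1, in which the small subunit genes stood nearer to their own means than the large ones.

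Levels between genes were compared per kilobase of merged exon (mean CPM over 6 libraries, scaled by edgeR's TMM factors, divided by length). In the large subunit the highest were *Rpl4*, a core protein of the peptide exit tunnel, with 172 CPM per kb, the stalk protein *Rplp1* with 160 and the stalk base *Rplp0* with 158. The lowest tested ones were *Rpl13a* with 1.40, the paralog *Rpl7l1* with 7.93 and *Rpl30* with 10.9. In the small subunit *Rps15* had 167 CPM per kb and *Rps3a1* 155, while *Rps28* had 3.42, *Rps12* 6.38 and *Rps15a* 6.58. Merged exons include retained introns of minor transcripts, which lowers this measure, and sequence shared with copies bears on it too. Over the 79 tested coding members a median of 60% of a transcript's 50-base windows also occurred in transcripts of other genes. For 51 of them the share was above 50%. How reads that match several genes were counted is not given in the sources used here, so the level of single members with many copies is uncertain. *Rpl13a*, for example, shared 57.4% of its windows, and *Rps12* 90.1%.

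The members differed more between libraries of a group than between the groups. DiO-only pool 2 was the highest of all 6 libraries for 70 of the 80 tested members (40 of 47 large, 30 of 33 small). Double-labelled pool 2 was the highest of its group for 66 of 80, and the pools numbered 2 were the 2 highest libraries for 64. Double-labelled pool 3 was the lowest for 50. As a median over members, pool 2 exceeded the mean of pools 1 and 3 by 1.65 on the log2 CPM scale in the DiO-only group and by 1.02 in the double-labelled group. The median member's deviation from its 6-library mean was -0.29, 1.11 and -0.42 (log2) in DiO-only pools 1 to 3 and -0.28, 0.56 and -0.65 in the double-labelled pools for the large subunit. For the small subunit it was -0.36, 1.22 and -0.43, then -0.07, 0.55 and -0.80. Both pools numbered 2 also had the highest mitochondrial share and the lowest total, as given above. What part these have in the pattern was not tested.

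**Figure D1:**
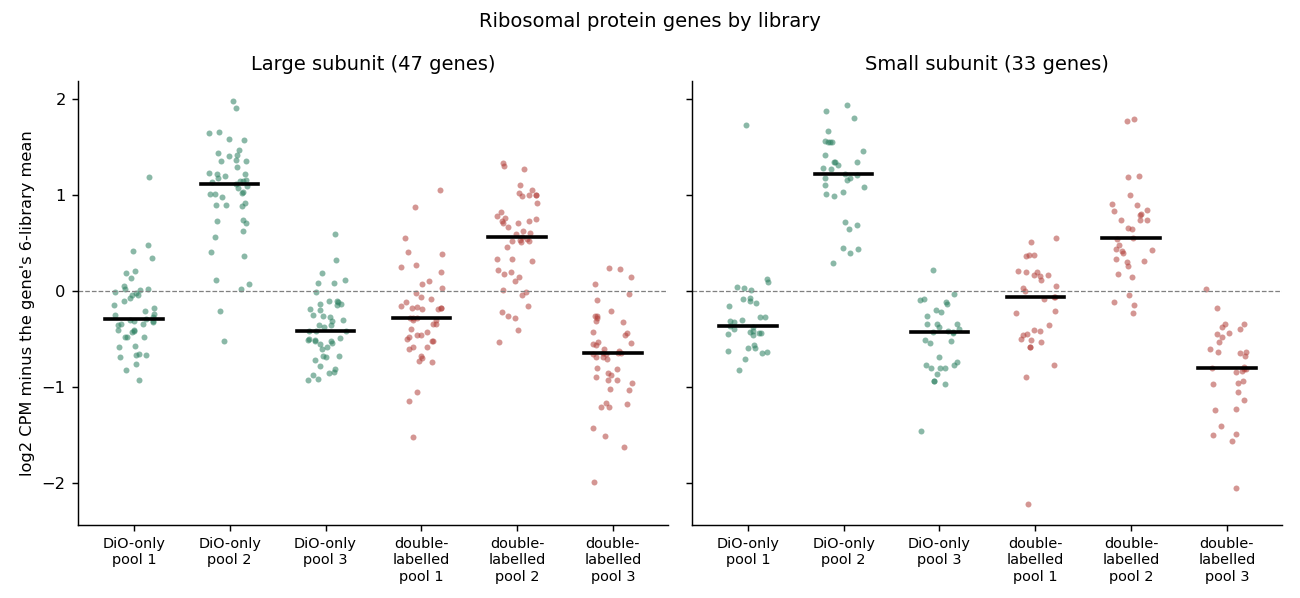
Level of each tested ribosomal protein gene by library, as log2 CPM minus the gene's own mean over the 6 libraries (points), for the large subunit (left, 47 genes) and the small subunit (right, 33 genes); black bars are medians over genes. Both pools numbered 2 stand above the other pools of their group, with medians of 1.11 and 0.56 in the large subunit.

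*Rpl38*, a surface protein of the large subunit, illustrates the pattern with 18.7, 113.7 and 16.2 CPM in DiO-only pools 1 to 3 and 36.3, 60.3 and 9.44 CPM in double-labelled pools 1 to 3. *Rps28*, which lies near the mRNA exit channel, had 2.32, 13.9 and 1.71 CPM and then 2.45, 13.8 and 1.06 CPM. Pool 2 was the highest of each group for both genes, and the groups overlapped. *Rpl41*, the shortest member with 75 coding bases, had 39.7, 128.6 and 24.9 CPM and then 45.3, 78.8 and 24.6 CPM.

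Not all members followed. *Rpl4* had 432, 344 and 359 CPM in the DiO-only and 405, 256 and 280 CPM in the double-labelled pools, so that pool 2 was the lowest of both groups. *Rpl3*, which helps shape the peptidyl transferase centre, had 245, 192 and 167 CPM and then 197, 126 and 193 CPM. They have the longest coding sequences of the tested members, with 1257 and 1209 bases. *Rpl7l1*, whose product is mainly known from ribosome assembly, had 56.2, 16.9 and 30.7 CPM and then 10.8, 24.7 and 27.1 CPM. With the median profile of the members these 3 correlated lowest over the 6 libraries (Pearson's r of -0.22 for *Rpl4*, -0.34 for *Rpl3* and -0.36 for *Rpl7l1*), while *Rpl27*, *Rps24* and *Rpl26* correlated highest (0.992, 0.991 and 0.990).

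The excess in pool 2 went with the coding length of the members. Over the 79 coding members the correlation of log2 coding length with the excess was -0.73 in the DiO-only group (Spearman's rho -0.79) and -0.69 in the double-labelled group (rho -0.72). This is a description across genes of the same libraries, which are not independent replicates. Longer members also had higher levels (r of 0.65 between log2 coding length and log2 mean CPM), and length and level were not separated. The 27 members with up to 400 coding bases had a median excess of 1.85 (log2) in DiO-only pool 2 and 1.33 in double-labelled pool 2. For the 29 members above 400 and up to 600 bases the values were 1.66 and 1.01, and for the 23 longer ones 0.75 and 0.52. Short genes outside the family were also raised in pool 2. The 75 other tested protein-coding genes whose transcript had up to 500 bases had median excesses of 1.16 and 1.01, and the 286 of 500 to 750 bases 0.80 and 0.52. The values were 0.33 and 0.20 for 420 genes of 750 to 1000 bases, -0.37 and -0.20 for 2537 genes of 1000 to 2000, -0.15 and -0.02 for 2633 genes of 2000 to 3000, and 0.01 and 0.05 for 5390 longer genes. Outside the family the excess thus fell with length up to 2000 bases and not beyond.

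**Figure D2:**
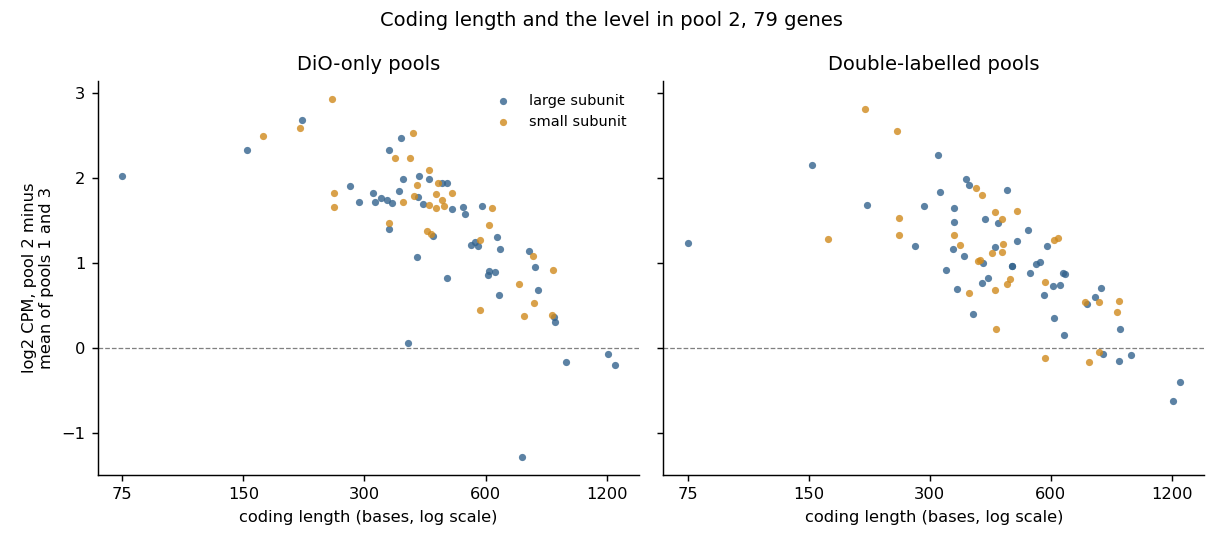
Excess of pool 2 over the mean of pools 1 and 3 (log2 CPM, vertical axis) against coding length in bases (log scale, horizontal axis) for 79 ribosomal protein genes, in the DiO-only pools (left) and the double-labelled pools (right); colours give the subunit. The excess declines with length in both groups, with r of -0.73 and -0.69.

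Across the 6 libraries the coding members varied together. The median Pearson's r over all pairs of the 79 genes was 0.86 (Spearman's rho 0.77), and 78.2% of pairs were above 0.5. It was 0.82 within the large subunit, 0.88 within the small subunit and 0.87 between them. The same measure was 0.24 over 77 genes of the mitochondrial ribosome, 0.48 over 31 proteasome genes, 0.27 over 23 other TOP mRNAs and 0.02 over the 3282 non-members of at least 50 CPM. For 361 other protein-coding genes with a transcript of at most 750 bases it was 0.30. Every such r rests on 6 libraries and on shared depth. Without both pools numbered 2 the members' median r was 0.50. The non-members of at least 50 CPM most like the median member were *Cox7b*, a subunit of cytochrome oxidase (r = 0.992), *Txn1*, *Wdr38*, *Gm33051*, *Ubl5* and *Tmsb4x* (r = 0.988). *Wdr38* overlaps *Rpl35* and *Gm33051* overlaps *Rpl22l1* on the opposite strand. Whether the counting used strand is not given in the sources used here, so reads of those pairs cannot be told apart.

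Between the groups, most members were lower in the double-labelled pools, but none passed the test. By edgeR's quasi-likelihood test 0 of 80 members, and 0 of all 12954 tested genes (0%), had a Benjamini-Hochberg adjusted p under 0.05. At an unadjusted p under 0.05 there was 1 member, *Rps4l*, against 753 of all tested genes (5.81%, with 2.63% lower and 3.18% higher). DESeq2 called 75 of 15233 genes (0.492%) and no member, and limma voom called 0 genes. The fitted log2 fold change was below 0 for 72 of 80 members, against 48.7% of all tested genes. Its median was -0.34 for the large subunit (43 of 47 below 0) and -0.29 for the small subunit (29 of 33), with 0.02 for all tested genes. Between libraries of a group the median deviation of the members varied with an SD of 0.74 (large) and 0.82 (small), more than either value.

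That direction did not hold without DiO-only pool 2, where the medians were 0.42 and 0.44. It also turned with limma voom's sample weights (0.15 and 0.23). DiO-only pools 1 to 3 had weights of 1.61, 1.17 and 1.67 there, and double-labelled pools 1 to 3 had 0.437, 1.54 and 0.470. DiO-only pool 2 thus had the lowest weight of its group and double-labelled pool 2 the highest of its group. Without any other single library the median fold changes stayed below 0. For the large subunit they lay between -0.84 (without double-labelled pool 2) and -0.16 (without double-labelled pool 3). For the small subunit they lay between -0.75 and -0.11, without the same pools. Without both pools numbered 2 the medians of the large and the small subunit were -0.10 and -0.03. Set against each other by number, which the labels do not say marks a pair, the double-labelled pool was lower than the DiO-only pool for 40 of 80 members at number 1, 76 at number 2 and 65 at number 3, with median differences of 0.01, -0.56 and -0.25 (log2). The labels speak of 3 batches of libraries without assigning them. By length, the medians without DiO-only pool 2 were 0.73 for members of up to 400 coding bases, 0.39 for those above 400 and up to 600 and -0.07 for the longer ones.

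**Figure D3:**
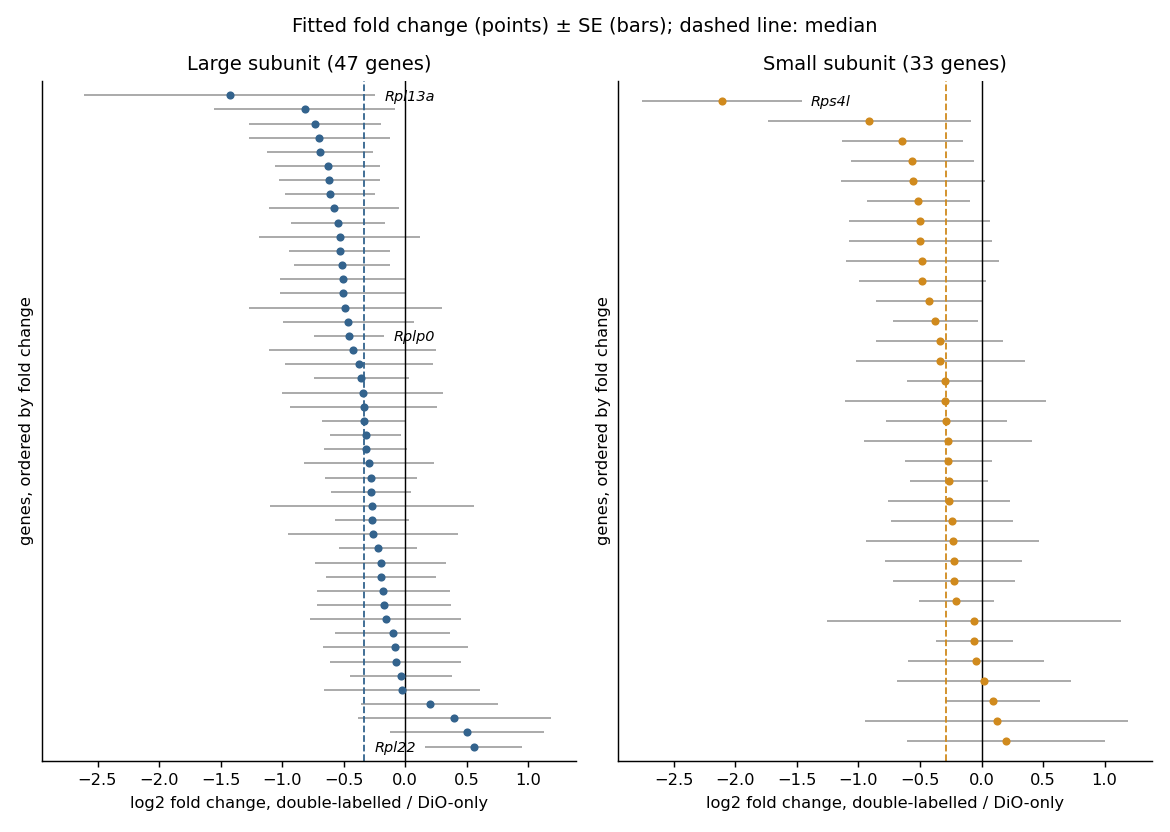
Fitted log2 fold change (double-labelled against DiO-only pools) of the 80 tested ribosomal protein genes with standard errors as bars, ordered within each subunit (vertical axis: 1 row per gene, with 4 genes of the text named); dashed lines are the subunit medians of -0.34 and -0.29. Most points lie left of 0 with bars near or across it, and *Rps4l* stands furthest left.

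Only 2 members had groups that did not overlap, both lower in the double-labelled pools (7.07% of all tested genes did so in that direction), and none was higher without overlap (5.86%, or 12.9% for both directions). *Rplp0*, the stalk base, had 359, 278 and 272 CPM in DiO-only pools 1 to 3 and 209, 212 and 242 CPM in double-labelled pools 1 to 3. Every DiO-only pool was thus above every double-labelled pool, and pool 2 was not raised. Its log2 fold change was -0.46 ± 0.28 (SE, edgeR adjusted p = 0.934). The other was *Rpl13a*, which is also known for a role outside the ribosome in silencing inflammatory mRNAs. It was near the floor with 2.75, 6.30 and 3.92 CPM and then 0.612, 2.18 and 1.99 CPM (log2 fold change -1.43 ± 1.18, edgeR adjusted p = 0.962), on 85 counts in all.

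The other large subunit members of smallest p were *Rpl13*, *Rpl17*, *Rpl9*, *Rpl10*, *Rpl7a*, *Rpl22*, *Rpl7l1* and *Rpl8*. *Rpl13* had 277, 449 and 210 CPM in the DiO-only and 169, 279 and 165 CPM in the double-labelled pools. Double-labelled pool 2 lay among the DiO-only pools, and the log2 fold change was -0.61 ± 0.37 (SE, edgeR adjusted p = 0.921). *Rpl17*, *Rpl9*, *Rpl10*, *Rpl7a* and *Rpl8*, core proteins of the large subunit, had log2 fold changes of -0.69, -0.62, -0.63, -0.54 and -0.51, with standard errors of 0.38 to 0.43, and all had overlapping groups. *Rpl7l1* had -0.73 ± 0.54 with its pools in no order by group. The stalk proteins *Rplp1* and *Rplp2* followed the common pattern, *Rplp2* with 32.7, 138.9 and 22.8 CPM and then 33.2, 88.2 and 23.4 CPM.

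*Rpl5* and *Rpl11*, which with the 5S RNA bind the p53 regulator MDM2 when assembly is disturbed, also overlapped between groups. *Rpl5* had 204, 227 and 164 CPM and then 202, 175 and 111 CPM. *Rpl11* had 75.3, 232 and 79.8 CPM and then 104.4, 172 and 83.4 CPM. The lowest value of *Rpl5* was in double-labelled pool 3, and *Rpl11* had both pools numbered 2 on top.

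*Rpl22* was the member with the highest fold change. It had 27.2, 28.8 and 28.0 CPM in the DiO-only pools and 49.1, 47.9 and 26.6 CPM in the double-labelled pools. Pools 1 and 2 of the double-labelled group were above all DiO-only pools, and pool 3 was below them (log2 fold change 0.55 ± 0.39, edgeR adjusted p = 0.954). Its paralog *Rpl22l1*, whose product can take the same place in the ribosome, had 37.9, 158 and 50.3 CPM and then 63.4, 111 and 43.5 CPM. Per kilobase *Rpl22l1* stood at 39.0 and *Rpl22* at 11.9 CPM, and counts of *Rpl22l1* exceeded those of *Rpl22* in all 6 libraries, by 1.29 to 5.49 times. The ratio was highest in DiO-only pool 2. *Rpl22l1* shares 65.6% of its windows with other genes and *Rpl22* 24.5%, so this ratio is uncertain too. The levels per kilobase rest on merged exons of 1989 bases for *Rpl22l1* and 2911 for *Rpl22*, whose transcripts have 552 and 474 bases.

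In the small subunit *Rps6*, the target of S6 kinase and a common reporter of mTORC1 activity, had 223, 290 and 222 CPM in the DiO-only and 306, 214 and 187 CPM in the double-labelled pools. The groups overlapped, and the 2 highest pools came from different groups. *Rps3*, at the mRNA entry channel, had 197, 314 and 178 CPM and then 185, 221 and 125 CPM. *Rps19*, mutated in Diamond-Blackfan anaemia, had 64.4, 183 and 49.8 CPM and then 87.3, 106.0 and 49.99 CPM. In both of these, DiO-only pool 2 was the highest of all pools.

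*Rpsa*, the laminin receptor homolog of the small subunit, had 272, 439 and 198 CPM and then 226, 319 and 209 CPM. *Rps2*, another protein of the entry channel, had 205, 249 and 176 CPM and then 125, 208 and 191 CPM. *Rps27a*, made as a fusion with ubiquitin, had 62.2, 213 and 65.6 CPM and then 79.9, 104 and 47.3 CPM. For all 3 the groups overlapped with DiO-only pool 2 at the top. The paralogs *Rps27* and *Rps27l* were both low, and counts of *Rps27l* were 1.49 to 3.40 times those of *Rps27*. *Rps27* shares 98.6% of its windows with other genes and *Rps27l* 22.4%, so that ratio is uncertain.

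*Rps4l* had the smallest p of the members. It had 113, 100.4 and 39.4 CPM in DiO-only pools 1 to 3 and 6.93, 41.8 and 11.2 CPM in double-labelled pools 1 to 3. The 2 highest pools were DiO-only and the 2 lowest double-labelled, and the groups overlapped only in that double-labelled pool 2 was above DiO-only pool 3. The level was 4.31-fold lower in the double-labelled pools (log2 fold change -2.11 ± 0.65, SE), with an edgeR p of 0.0074 that did not pass adjustment (adjusted p = 0.617). It was number 155 of all tested genes by p. In the edgeR fit without a low-count filter *Rps4l* was called (log2 fold change -2.13), 1 of 79 genes among 28513 (0.277%). Over the other alternatives, in which it was not called, its log2 fold change lay between -3.24 and -1.39.

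*Rps4l* is a single-exon copy of *Rps4x* on chromosome 6 (chr6:148354656-148355598, plus strand, mm10), annotated as a transcribed processed pseudogene. *Rps4x*, its parent on the X chromosome (chrX:102184941-102189394, minus strand), has 7 exons. Aligned over the 789 coding bases of *Rps4x*, the copy was identical at 628 (79.6%), with 161 mismatches and no gap. The first 60 coding bases of *Rps4x* and the matching bases of *Rps4l* (chr6:148354710-148354769) are printed because such differences let reads of the 2 genes be told apart. Capitals mark their 7 mismatches, and both come from GENCODE M21 transcripts.
Rps4x: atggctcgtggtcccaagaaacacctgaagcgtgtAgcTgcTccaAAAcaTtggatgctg
Rps4l: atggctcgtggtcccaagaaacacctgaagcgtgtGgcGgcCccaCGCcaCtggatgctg

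*Rps4x* had 95.0, 232 and 128 CPM in the DiO-only and 170, 201 and 113 CPM in the double-labelled pools, with overlapping groups. The ratio of *Rps4l* to *Rps4x* counts was 1.19, 0.432 and 0.309 in the DiO-only pools and 0.0408, 0.208 and 0.0991 in the double-labelled pools. All DiO-only pools were above all double-labelled ones in this ratio, which was chosen after the values of both genes were seen and is given without a test. Of the 50-base windows of the *Rps4l* transcript 18.0% occurred in 1 other gene, against 72.2% for *Rps4x* in 11 genes.

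**Figure D4:**
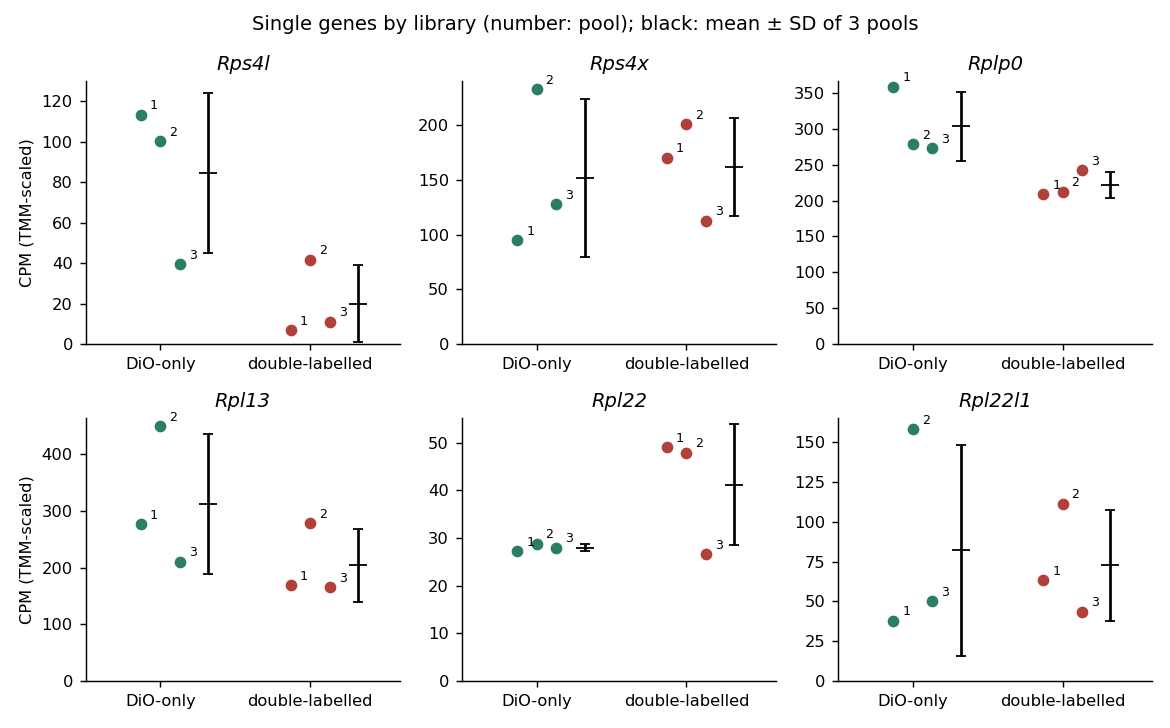
Level of 6 ribosomal protein genes in each pool (points, TMM-scaled CPM, axes from 0; the number is the pool) with mean and SD of the 3 pools beside them. *Rplp0* is lower in all double-labelled pools, *Rps4l* overlaps in 1 pool, *Rpl22* is raised in 2 of 3 double-labelled pools, and *Rpl22l1* and *Rps4x* overlap widely.

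Ribosomal components outside the naming rule varied likewise. *Fau*, which encodes a small subunit protein fused to a ubiquitin-like domain, had 112, 595 and 98.6 CPM in the DiO-only and 176, 263 and 67.8 CPM in the double-labelled pools. Its profile matched that of the median member with r = 0.979. *Rack1*, a scaffold on the small subunit, had 146, 134 and 99.1 CPM and then 155, 117 and 84.2 CPM.

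Genes that build, regulate or accompany the ribosome were also without a call. Of 77 tested genes of the mitochondrial ribosome 40 were lower and 37 higher (median log2 fold change -0.02). Of 81 genes of ribosome assembly 51 were lower and 30 higher (-0.09), and of 20 genes of RNA polymerase I, which makes the ribosomal RNA, 12 and 8 (-0.08). Among 24 regulators, from mTORC1 and its inhibitors to MYC and GABP, 10 were lower and 14 higher (0.15). *Gabpb1*, a subunit of GABP, had 7.38, 7.29 and 22.8 CPM in the DiO-only and 3.67, 2.54 and 2.53 CPM in the double-labelled pools, without overlap (log2 fold change -2.09 ± 0.82, edgeR adjusted p = 0.742). *Rps6kb1*, a kinase of *Rps6* downstream of mTORC1, had 59.9, 36.8 and 38.9 CPM and then 109.3, 50.8 and 102 CPM, with overlap in double-labelled pool 2 (log2 fold change 0.95 ± 0.39, edgeR adjusted p = 0.772). *Tsc2*, an inhibitor of mTORC1, had 76.1, 70.3 and 77.2 CPM in the DiO-only and 103, 121 and 150 CPM in the double-labelled pools, without overlap (log2 fold change 0.74 ± 0.31, edgeR adjusted p = 0.775). Quality control and import genes had 15 lower and 9 higher of 24 (-0.11).

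The TOP mRNAs that encode no ribosomal protein had 19 lower and 4 higher of 23 (48.7% of all tested genes were lower), with a median of -0.46. For 7 the groups did not overlap, all lower (7.07% of all tested genes). *Vim*, which encodes an intermediate filament protein, had the smallest p of them, with 95.3, 183 and 155 CPM in the DiO-only and 47.7, 92.2 and 58.1 CPM in the double-labelled pools. *Eef1b2*, an exchange factor of translation elongation, had 208, 434 and 242 CPM in the DiO-only and 162, 191 and 150 CPM in the double-labelled pools (log2 fold change -0.81 ± 0.34, edgeR adjusted p = 0.795). Without DiO-only pool 2 their median was -0.29, on the same side of 0, where those of the ribosomal proteins changed side. The 31 proteasome genes had 28 lower and 3 higher, with medians of -0.34 and, without that pool, -0.44. The difference between these lists and the ribosomal proteins was not tested.

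**Figure D5:**
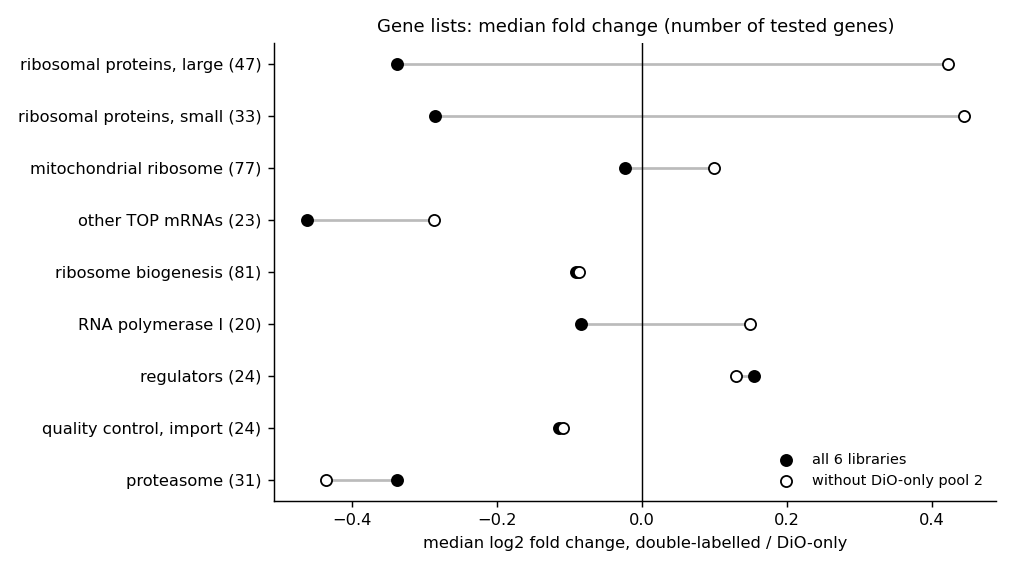
Median log2 fold change (double-labelled against DiO-only pools) of 9 gene lists, with the number of tested genes in brackets, over all 6 libraries (filled) and without DiO-only pool 2 (open). The ribosomal proteins of both subunits cross from -0.34 and -0.29 to 0.42 and 0.44, while the other TOP mRNAs and the proteasome stay below 0.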

How the data were processed

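The authors deposited raw gene counts, 1 table of 6 libraries whose values equal those of the 6 single-library tables. FastQC, HISAT2, HTSeq and the mm10 build are named per the submitters' processing notes. For versions, annotation, strand setting and multiply matching reads, nothing is given in the sources used here. All 53858 gene IDs matched GENCODE M21, and 25345 had 0 counts in every library.

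Counts were tested with edgeR 4.0.16 (R 4.3.3) by the quasi-likelihood test with TMM factors and filterByExpr, which kept 12954 genes with 99.2% of counts. The biological coefficient of variation was 0.587, and p-values were adjusted over all tested genes by Benjamini-Hochberg (threshold 0.05). DESeq2 1.42.0, limma 3.58.1, other scalings, other filters and leaving out each library were alternatives. The test was checked on counts simulated for this comparison (12497 genes in the fit). It called 30 of 59 genes changed 8-fold, 5 of 62 changed 4-fold, 0 of 64 changed 2-fold and 0 of 12312 unchanged genes. Every simulated gene had the common coefficient of 0.587 and varied independently of the others. Real genes differ in their scatter and the members varied together, so these rates need not hold for the members. Log2 CPM used a prior count of 2. Merged exon length, coding length and 50-base windows came from GENCODE M21 and start windows from RefSeq.

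The members and gene lists were chosen with earlier results of these data known. The text names the 10 members of smallest p, the 3 highest and lowest per kilobase in each subunit, the 3 most and least like the median profile, paralogs with their parents, a fixed list of well-studied members, up to 6 like genes outside the family, and genes of smallest p from the regulators and the other TOP mRNAs. Some genes that this rule gives are not reported here. Depth was 2997714 to 6563403 counts, and PCR reads without molecular identifiers are not independent molecules, so a limit of 3 counts covers counting error only.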

Additional observations from a re-analysis of the deposited data

How the results depend on the processing

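With 3 pools of few cells a group, single members had standard errors of 0.28 to 1.19 (log2), and depth limits members under a few CPM. No member was called under any alternative but the fit without a low-count filter, which called 1 member and 79 genes in all. DESeq2 called 75 genes, and the fit without both libraries numbered 1, chosen after seeing the data, called 1. The median log2 fold change ranged from -0.84 to 0.42 (large subunit) and -0.75 to 0.44 (small subunit) over the fits that left out 1 library, and the lowest value came without double-labelled pool 2. Over those fits the difference of the small subunit's share ranged from -0.0887 to 0.0140 percentage points and that of the large subunit from -0.158 to -0.0206, while 0 genes were called in each. The median correlation among members ranged from 0.74 to 0.93. *Rpl7l1* turned upward (0.14) without both libraries numbered 1. The cause of these changes was not tested beyond the smaller number of samples. With the replicate block 23 genes and 0 members were called, with medians of -0.28 and -0.22. The numbers were not taken as pairs, since the labels do not say that they mark pairs. Over all tested genes the deviations of same-numbered libraries correlated with r of 0.07, 0.23 and 0.20, and each library correlated best with its own number. Whether the numbers mark pairs or batches was not tested. Over the coding members r was -0.01, 0.80 and 0.77, and DiO-only pool 1 correlated best with double-labelled pool 3 (0.56).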
